A study of Mus musculus with 6 samples.

Results

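Genes for proteins that shorten the life of cytokine mRNAs were followed in mouse bone marrow-derived mesenchymal stem cells (MSCs, adherent stromal cells of the marrow) after TNF-α, an inflammatory cytokine. The 7 genes were chosen by symbol: Zfp36, Zfp36l1 and Zfp36l2 of the tristetraprolin (TTP) family, Zc3h12a and Zc3h12c of the Regnase family, and Rc3h1 and Rc3h2 of the Roquin family. All 7 were among the 15634 genes listed and among the 15547 with enough counts to be tested. The TNF group held 3 libraries of MSCs given 10 ng/mL TNF-α for 24 h, and the Control group 3 libraries of MSCs left unstimulated for the same 24 h. Both groups came from wild-type (WT) C57BL/6J mice and were maintained in serum-supplemented α-MEM containing antibiotics. Total RNA was sequenced, and the comparison asks which transcripts differ in the cultures after TNF-α. The labels do not say whether the 3 replicates were separate cultures or animals, so p-values measure only the spread between these samples.

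As background, TTP-family proteins carry a pair of CCCH zinc fingers that grip AU-rich elements, runs built on UAUUUAU in the 3' untranslated region (3' UTR) of a message, and bring in the CCR4-NOT complex, which removes the poly(A) tail. Regnase-1, the product of Zc3h12a, is an endonuclease that cuts stem-loops in such messages. Roquin-1 and Roquin-2, the products of Rc3h1 and Rc3h2, bind similar stem-loops without cutting them and recruit deadenylation and decapping factors. TNF, IL-6 and several chemokines are encoded by classical targets of these proteins. Mice lacking TTP or Regnase-1 develop severe inflammation or autoimmunity.

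Several of the decay genes carry the element that the TTP family binds. The UTRs were taken from GENCODE M21 on build GRCm38, whereas the authors worked on GRCm39, so positions belong to GRCm38 only. The heptamer TATTTAT, the DNA spelling of that run, searched on the transcript strand with overlapping matches counted, occurred in 28.9% of 13393 tested genes with a 3' UTR and in 6 of the 7 decay genes, with 3 copies each in Zfp36, Zfp36l1, Zfp36l2 and Rc3h2 and 2 each in Zc3h12c and Rc3h1. Zc3h12a had none in a 3' UTR of 856 bases, while 21.2% of tested genes with 3' UTRs of like length (0.8 to 1.25 times as long) had at least 1. For Zfp36, with a 3' UTR of 774 bases, that share was 20.4%. It was 39.2% for Zfp36l1 and 39.0% for Zfp36l2, and between 60.2% and 77.1% for the other 3 genes, whose 3' UTRs run to 7181 bases in Rc3h1. A match is a description of the letters and does not show that a protein binds there. For each decay gene with a match, a 30-base stretch of 3' UTR with the most heptamers follows, with the heptamers in capitals. Outside Zfp36 each stretch held 1 copy, and where stretches tied the first along the 3' UTR is shown.
Zfp36, chr7:28376958-28376987, minus strand: ccttTATTTATgacgacttTATTTATtgta
Zfp36l1, chr12:80108422-80108451, minus strand: cttatcaaaacgTATTTATtgccaaactat
Zfp36l2, chr17:84184914-84184943, minus strand: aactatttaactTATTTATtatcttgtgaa
Zc3h12c, chr9:52114862-52114891, minus strand: tgctataatcatTATTTATaggaacaaaga
Rc3h1, chr1:160970042-160970071, plus strand: tactttactcatTATTTATtgagatgagga
Rc3h2, chr2:37374756-37374785, minus strand: ttccagctgcttTATTTATctttttcattg
Tnf, Cxcl1, Cxcl2 and Ptgs2, target messages that belong to the lists described further on, are shown for comparison in the same way.
Tnf, chr17:35199678-35199707, minus strand: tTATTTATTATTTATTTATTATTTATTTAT
Cxcl1, chr5:90892606-90892635, plus strand: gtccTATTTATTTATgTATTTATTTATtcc
Cxcl2, chr5:90905325-90905354, plus strand: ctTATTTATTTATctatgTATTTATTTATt
Ptgs2, chr1:150105789-150105818, plus strand: actgaccaTATTTATTTATTTATgtgaaga
In these targets the copies overlap in tandem, between 3 and 5 within 30 bases, while no such stretch of a decay gene held more than 2.

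Total counts ran from 45629973 to 77142418 per library. Reads of 18S ribosomal RNA took 19.4% of the counts in TNF library 2 and 1.11% to 3.55% in the other 5 libraries. All 12 MSC and stromal markers were listed, at levels from 1.55 CPM (Lepr) to 5865 CPM (Col1a2) in TNF libraries and from 0.475 to 9647 CPM for the same genes in Control libraries. Their summed level was 3973 to 4632 TPM in TNF libraries and 6712 to 7687 TPM in Control libraries. Of the 12, 3 were called higher (Cd44, Pdgfra and Lepr) and 3 lower (Col1a1, Col1a2 and Thy1), against 32.4% of all tested genes called in either direction. Thy1 lost its call without TNF 1 or TNF 2 (edgeR adjusted p up to 0.0756). It was also lost with both limma fits on TPM and without both libraries numbered 2. Col1a2 lost its call only with the replicate block, and Cd44, Pdgfra, Lepr and Col1a1 kept theirs throughout. The cultures also held macrophage transcripts: all 15 macrophage markers, Adgre1 and Csf1r among them, had reads in all 6 libraries. Their summed level was 2249 to 2702 TPM in TNF libraries and 3245 to 4588 TPM in Control libraries, highest in Control library 2. Of the 15 macrophage markers, 2 were called higher and 7 lower, while 16.0% of all tested genes were called higher and 16.4% lower. The higher count was 1 without TNF 1, Control 1 or Control 3, and 4 without Control 2. Of 14 lymphoid, neutrophil and endothelial markers 11 were not listed, and the other 3 stayed under 1 CPM. Which cells the decay transcripts came from was not tested. Bulk RNA cannot tell a change in the number of cells of a type from a change in RNA per cell. Leaving out the libraries numbered 2 of both groups, the decay genes gave the same 4 calls, with log2 fold changes of 2.39 for Zc3h12a, 1.13 for Zfp36l1, 0.63 for Zc3h12c and 0.53 for Zfp36.

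After TNF-α, 4 of the 7 decay genes rose, namely Zc3h12a, Zfp36l1, Zc3h12c and Zfp36, and 0 fell. Zc3h12a rose most, 4.79-fold, and Zfp36l1 2.44-fold, whereas Zfp36 and Zc3h12c rose by less than 1.5 times. Zfp36l2, Rc3h1 and Rc3h2 were not called. Over all tested genes 32.4% were called by edgeR's quasi-likelihood test (Benjamini-Hochberg adjusted p under 0.05), 16.0% higher and 16.4% lower in TNF. The 4 of 7 thus stand beside a background of about 1 in 6 genes higher. Because the 7 were chosen with earlier results of these data known, that comparison is a description only. With library totals in place of TMM scaling, 38.5% of all calls were higher, against 49.4% with TMM, and the same 4 decay genes were called higher. In 5 of the 7 the 3 TNF values did not overlap the 3 Control values, as was so for 48.7% of all tested genes. The median log2 fold change of the 7 was 0.52, against -0.005 over all tested genes.

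**Figure D1:**
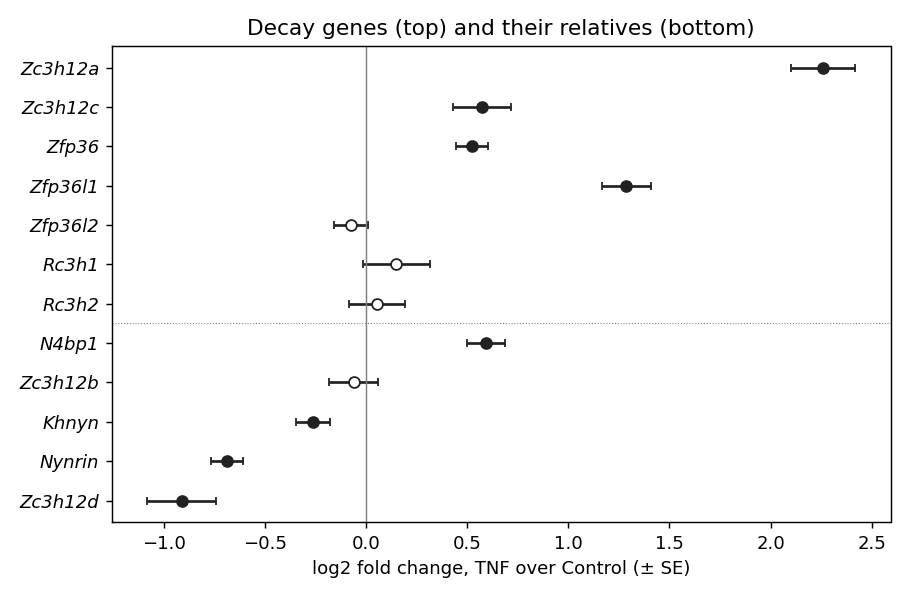
Log2 fold change, TNF over Control, of the 7 decay genes (above the dotted line) and of 5 related genes (below it), with bars of 1 SE from edgeR and filled points for genes called at an adjusted p under 0.05. Zc3h12a lies at 2.26 and Zfp36l1 at 1.29, while Zfp36l2, Rc3h1 and Rc3h2 lie within 0.16 of 0.

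Among the Regnases, Zc3h12a had 20.8, 16.7 and 14.2 CPM (counts scaled to library size with TMM factors) in TNF libraries 1, 2 and 3, against 3.34, 4.06 and 3.36 CPM in Control libraries 1, 2 and 3. Every TNF value was more than 3 times the highest Control value. These values rest on 655 to 1044 counts per TNF library and 191 to 307 per Control library. The log2 fold change was 2.26 ± 0.16 (SE, n = 3 each, edgeR adjusted p = 1.32e-05), and it stayed between 2.10 and 2.38 when any 1 library was left out. Zc3h12c, which encodes the paralogue Regnase-3, had 16.1, 18.1 and 14.3 CPM in TNF libraries, against 10.6, 12.8 and 9.14 CPM in Control libraries. The lowest TNF value, of library 3, was close to the highest Control value, of library 2. Its log2 fold change was 0.57 ± 0.14 (SE, n = 3 each, edgeR adjusted p = 0.0146), a 1.49-fold rise. That call was lost without TNF library 2 (edgeR adjusted p = 0.0534, log2 fold change 0.49) and without Control library 1 (adjusted p = 0.05002, just above the threshold, log2 fold change 0.55).

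In the TTP family, Zfp36l1, which encodes a sister protein of TTP also known as BRF1 or TIS11b, had 149, 162 and 124 CPM in TNF libraries and 62.4, 53.2 and 62.7 CPM in Control libraries. The groups were far apart, with the lowest TNF library close to 2 times the highest Control library. The log2 fold change was 1.29 ± 0.12 (SE, n = 3 each, edgeR adjusted p = 7.05e-05), between 1.20 and 1.39 when any 1 library was left out. RefSeq annotates a pseudogene of Zfp36l1, and how reads were divided between the copies is not given in the sources used here. Zfp36, the gene of TTP itself, had 31.4, 29.5 and 28.6 CPM in TNF libraries and 20.3, 20.5 and 21.5 CPM in Control libraries. Both groups were tight and separate, which gave a log2 fold change of 0.52 ± 0.08 (SE, n = 3 each, edgeR adjusted p = 0.00117) for a 1.44-fold rise. Leaving out any 1 library kept it between 0.49 and 0.56.

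Zfp36l2, the remaining family member, had 258, 243 and 257 CPM in TNF libraries and 274, 264 and 260 CPM in Control libraries. The 2 sets of values did not overlap, yet they lay close together. The log2 fold change of -0.08 ± 0.08 (SE, n = 3 each) was not called (edgeR adjusted p = 0.522). Its range within 1 SE ran from 0.896-fold to 1.01-fold.

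Neither Roquin gene was called. Rc3h1 had 36.9, 48.4 and 34.6 CPM in TNF libraries and 38.5, 41.1 and 28.3 CPM in Control libraries, for a log2 fold change of 0.15 ± 0.17 (SE, n = 3 each, edgeR adjusted p = 0.521). Rc3h2 had 33.0, 42.8 and 29.96 CPM in TNF libraries and 36.9, 34.2 and 30.6 CPM in Control libraries, with a log2 fold change of 0.06 ± 0.14 (SE, n = 3 each, edgeR adjusted p = 0.785). Both groups overlapped, and in CPM TNF library 2, the one rich in 18S reads, was the highest of the 6 for both genes. In TPM Control library 1 was highest, with 6.57 TPM for Rc3h1 and 9.79 TPM for Rc3h2, against 6.45 and 9.58 TPM in TNF library 2. Without TNF library 2 the log2 fold changes were -0.01 for Rc3h1 and -0.11 for Rc3h2, so neither has a settled direction here. With only the 18S row removed they were 0.15 and 0.055. The part of the 18S reads in the high CPM values of TNF library 2 was not tested.

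Levels of different genes were compared per length, in the deposited TPM. In Control libraries Zfp36l2 was highest with 122 to 145 TPM, followed by Zfp36l1 with 29.3 to 46.1 TPM and Zfp36 with 12.1 to 14.2 TPM. Rc3h2 came next with 6.59 to 9.79 TPM and Rc3h1 with 4.47 to 6.57 TPM, and within each Control library Rc3h2 was above Rc3h1. Zc3h12c (2.43 to 3.08 TPM) and Zc3h12a (2.32 to 2.89 TPM) were lowest, and their ranges overlapped. The order differed in TNF libraries, where Zc3h12a, at 12.2 to 17.7 TPM, lay above both Roquin genes and Zc3h12c and overlapped the range of Zfp36 (16.3 to 20.2 TPM). Within each TNF library Zfp36 was still above Zc3h12a. Zfp36l1 had 86.8 to 102 TPM and Zfp36l2 105 to 130 TPM in TNF libraries, and Zfp36l2 was above Zfp36l1 in each of the 3. Zc3h12c had 3.62 to 4.30 TPM there, the lowest of the 7, below Rc3h1 with 5.27 to 6.45 TPM and Rc3h2 with 6.86 to 9.58 TPM.

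**Figure D2:**
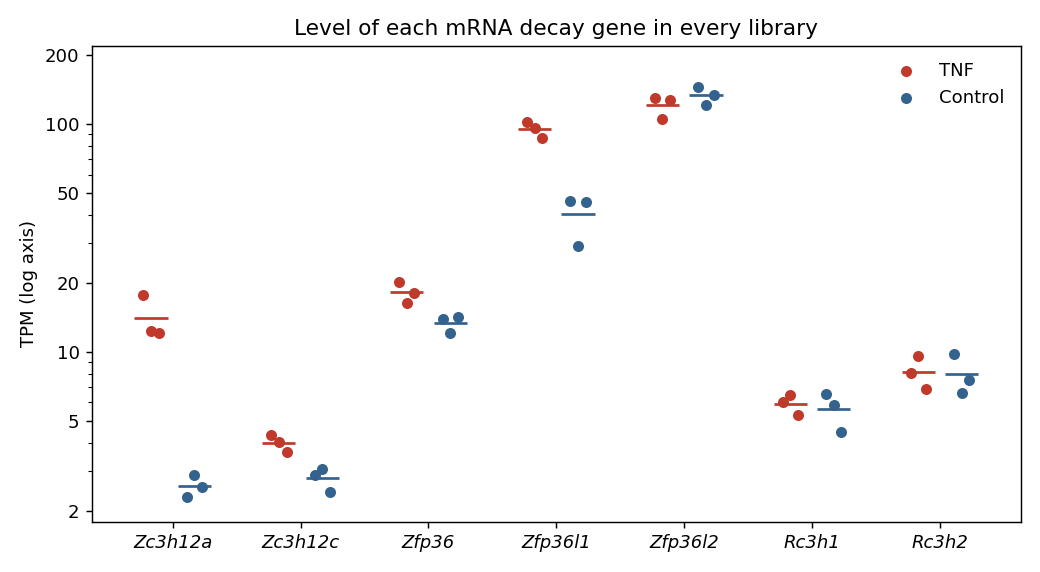
TPM of each decay gene on a log axis, with 1 point per library (TNF left, Control right for each gene) and a line at the group mean (n = 3 each). Zc3h12a averages 14.1 TPM in TNF and 2.59 TPM in Control libraries, and the points of Zfp36l2, Rc3h1 and Rc3h2 overlap between groups.

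The make-up of 2 of the 3 families differed between the groups. Zfp36l1 made up 40.7 ± 3.40% of the summed TPM of the TTP family in TNF libraries and 21.3 ± 2.99% in Control libraries (SD, n = 3 each), while Zfp36l2 made up 51.5 ± 3.22% in TNF libraries and 71.5 ± 2.85% in Control libraries. TTP itself remained a minor part, with 7.80 ± 0.27% of the family in TNF libraries and 7.17 ± 0.36% in Control libraries. Of the summed TPM of both Regnase genes, Zc3h12a held 80.5%, 75.3% and 77.05% in TNF libraries 1, 2 and 3 and 44.6%, 48.4% and 51.3% in Control libraries 1, 2 and 3. Each of these shares separated the groups without overlap, with p = 0.1 by a two-sided exact permutation test, the smallest that 3 against 3 libraries allow. Rc3h1 held 42.1 ± 1.66% of the Roquin pair in TNF libraries and 41.4 ± 4.98% in Control libraries (exact permutation p = 0.9). Summed over each family, the TTP genes had 234 ± 17.1 TPM in TNF and 187 ± 21.8 TPM in Control libraries. The same sums were 18.1 ± 3.44 and 5.38 ± 0.51 TPM for the Regnase pair in TNF and Control libraries, and 14.1 ± 1.95 and 13.6 ± 2.40 TPM for the Roquin pair (SD, n = 3 each).

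**Figure D3:**
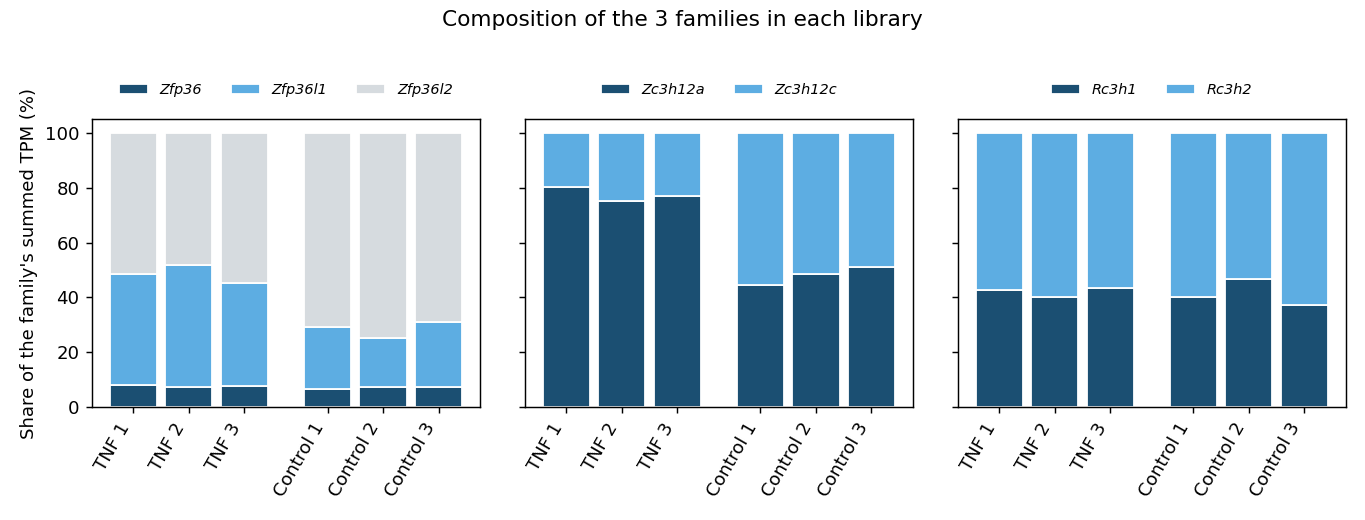
Share of each gene in the summed TPM of its family, 1 bar per library with TNF libraries left and Control libraries right. Zfp36l1 takes 37.4% to 44.2% of the TTP family in TNF libraries and 17.97% to 23.6% in Control libraries, and the Roquin pair keeps like proportions.

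Relatives outside the 7 went both ways. Of 6 listed relatives 5 were tested, 1 rose and 3 fell (80.0% called, against 32.4% of all tested genes). N4bp1, whose product shares the nuclease fold of the Regnases and restrains NF-kB signalling, had 136, 143 and 119 CPM in TNF libraries and 84.6, 86.3 and 92.5 CPM in Control libraries, a 1.51-fold rise (edgeR adjusted p = 0.00148). Zc3h12d, the gene of Regnase-4, fell to 1.35 ± 0.05 CPM in TNF libraries, against 2.53 ± 0.37 CPM in Control libraries (SD, n = 3 each, edgeR adjusted p = 0.00358). Thus 2 Regnase genes rose and 1 fell in the same libraries, and Zc3h12b was not called. Nynrin, which encodes another protein with that nuclease domain, averaged 43.7 ± 1.22 CPM in TNF and 70.3 ± 3.83 CPM in Control libraries (SD, n = 3 each, edgeR adjusted p = 0.000223). Khnyn, the gene of a cofactor of the antiviral protein ZAP, was also called lower (log2 fold change -0.26, edgeR adjusted p = 0.0437), but lost its call in each of the 6 repeats without 1 library (adjusted p up to 0.157).

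Of 11 other proteins that bind AU-rich or stem-loop RNA, 1 rose and 0 fell (9.09% called, against 32.4% of all tested genes). That 1 was Arid5a, whose product shields Il6 mRNA from Regnase-1. It had 29.96, 24.7 and 26.2 CPM in TNF libraries and 12.99, 10.6 and 14.4 CPM in Control libraries, a log2 fold change of 1.09 ± 0.13 (SE, n = 3 each, edgeR adjusted p = 0.000285). The median log2 fold change of the 11 was 0.09. Elavl1, the gene of HuR, which stabilises AU-rich messages, was not called at -0.19 ± 0.13 (SE, n = 3 each, edgeR adjusted p = 0.285).

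The machinery that these proteins recruit was mostly not called, as was so for tested genes at large. In the deadenylation list 1 of 18 genes rose and 1 fell (11.1% called, against 32.4% of all tested genes). Cnot7, a catalytic subunit of CCR4-NOT, had a log2 fold change of 0.25 ± 0.08 (SE, n = 3 each, edgeR adjusted p = 0.0403), and was not called without TNF 1, TNF 2, Control 1 or Control 3 (adjusted p up to 0.147). The count called higher was 2 without TNF 3 or Control 2. Tob1, whose product links CCR4-NOT to messages, fell to 18.6 ± 0.62 CPM in TNF libraries, against 30.6 ± 8.78 CPM in Control libraries (SD, n = 3 each, edgeR adjusted p = 0.0149, and 0.0614 without TNF library 1). The scaffold Cnot1 was not called, at 0.03 ± 0.12 on the log2 scale.

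Among 22 tested genes of decapping and RNA degradation 3 rose and 2 fell (22.7% called, against 32.4% of all tested genes). The higher ones were Exosc1, a subunit of the exosome (log2 fold change 0.37), Eif4e2, a cap-binding repressor that works with TTP (0.31), and Dcp2, the decapping enzyme (0.47). The lower ones were Ddx6, a helicase of decapping complexes (-0.60), and Upf1, the helicase with which Regnase-1 works (-0.35). Among these 5, Exosc1 alone kept its call in all 6 repeats without 1 library (edgeR adjusted p up to 0.0457), though not with library totals or limma on TPM. Eif4e2 lost it without TNF 1, TNF 3 or Control 1 (up to 0.102), Dcp2 without TNF 1, TNF 2, TNF 3, Control 1 or Control 3 (up to 0.137), Ddx6 without TNF 1, TNF 2 or TNF 3 (up to 0.0945), and Upf1 without TNF 1, TNF 3, Control 1, Control 2 or Control 3 (up to 0.166). The higher count was 1 without TNF library 1, and the lower count was 0 without TNF library 1 or TNF library 3 and 1 without each of the other libraries.

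Of 16 genes for kinases and other regulators of the decay proteins, 8 were called higher and 1 lower (56.2% called, against 32.4% of all tested genes). Mapkapk2 encodes MK2, the kinase downstream of p38 that phosphorylates TTP and weakens its action. It rose 2.27-fold, with 300, 276 and 285 CPM in TNF libraries and 128, 124 and 129 CPM in Control libraries (edgeR adjusted p = 1.32e-05). Malt1, the gene of the protease that cleaves Regnase-1 and the Roquins, had 14.5, 16.96 and 16.4 CPM in TNF libraries and 6.17, 5.12 and 4.67 CPM in Control libraries, a 2.995-fold rise (edgeR adjusted p = 2.63e-05). Ikbke, a kinase related to TBK1, rose 3.92-fold to 105 ± 4.496 CPM in TNF libraries, against 26.7 ± 2.70 CPM in Control libraries (SD, n = 3 each, edgeR adjusted p = 1.82e-06). The other 5 that rose were Mapk11, Tbk1, Ikbkb, whose product marks Regnase-1 for breakdown, Mapkapk3 and Dusp1, which encodes a phosphatase that switches p38 off. They were named after their values were seen, to complete the count, and their log2 fold changes ran from 0.43 for Dusp1 to 1.06 for Mapk11. Map2k6, a kinase that activates p38, was called lower at -0.43 (edgeR adjusted p = 0.0400), but not without TNF 2, TNF 3, Control 1 or Control 3 (adjusted p up to 0.110).

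Most messages that the decay proteins are known to limit were called higher in the same libraries. Of 19 listed targets of the TTP family 16 were tested, 15 rose and 0 fell (93.8% called), with a median log2 fold change of 1.89. Of 18 listed targets of Regnase-1 and the Roquins 13 were tested, 10 rose and 0 fell (76.9% called), with a median of 2.18. The 2 lists had 7 genes in common. Over all tested genes 32.4% were called. All 15634 genes in the data had at least 10 counts in at least 3 libraries. Il6, Il1a, Il1b and Cxcl3 fell short of that in Control libraries, so they entered only through their TNF counts. Their direction was fixed by this, though the tallies and medians include them. Targets absent from the data have no known direction here. Il6 had 15.0, 13.5 and 8.39 CPM in TNF libraries and 0.15, 0.15 and 0.16 CPM in Control libraries (log2 fold change 6.32 ± 0.30 SE, n = 3 each, edgeR adjusted p = 1.41e-06). The groups were far apart, but the Control values rest on only 9, 11 and 9 counts. Among the chemokines, Cxcl2 reached 12.4 ± 2.72 CPM in TNF libraries, against 0.384 ± 0.121 CPM in Control libraries, and Ccl2 2216 ± 282 CPM in TNF libraries, against 19.3 ± 3.29 CPM in Control libraries (SD, n = 3 each). Cxcl3, with only 3 counts over the 3 Control libraries, had a TNF to Control ratio of 359, and its exact (Clopper-Pearson) 95% interval of 123 to 1746 covers counting error only. Ccl2 had 0 copies of TATTTAT in its 3' UTR of 275 bases, whereas Cxcl2 had 7 and Tnf 8. The targets not called were Fos in the first list, and Rel, Tfrc and Nfkbid in the second, with log2 fold changes of 0.18, 0.18, -0.02 and 0.68. Their mRNA levels reflect synthesis and decay together, and decay rates were not measured.

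**Figure D4:**
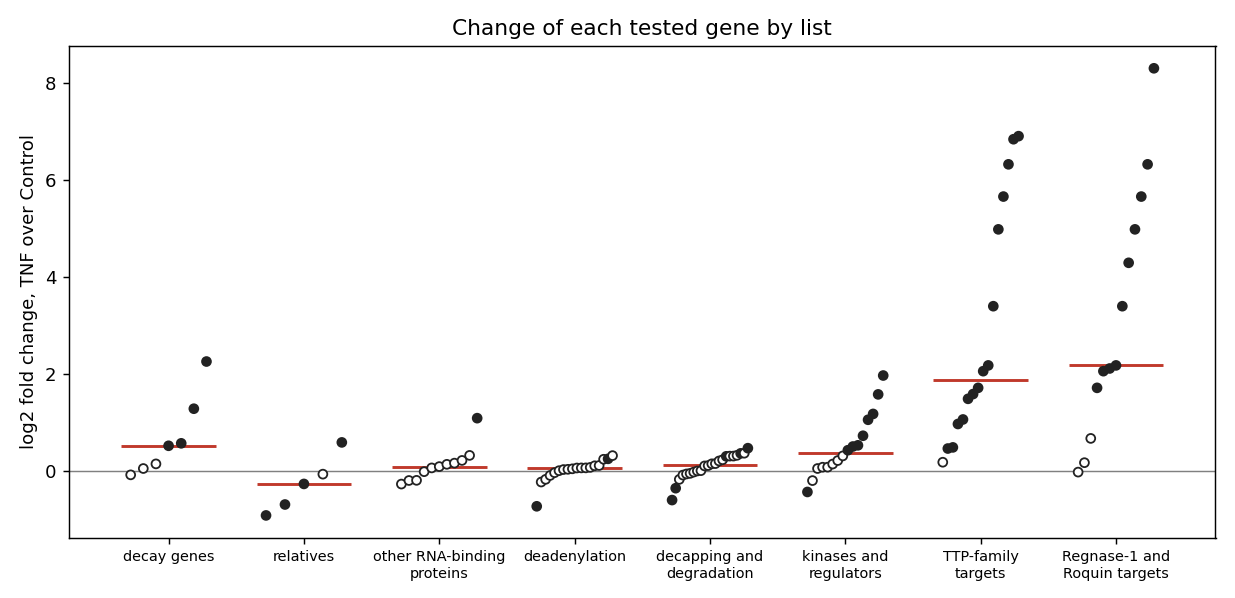
Log2 fold change, TNF over Control, of every tested gene by list, with filled points for genes called by edgeR at an adjusted p under 0.05, open points for the others and a red line at each list's median. The target lists have medians of 1.89 and 2.18, the decay genes 0.52, and the deadenylation and decapping lists 0.06 and 0.13. The target medians include Il6, Il1a, Il1b and Cxcl3, which entered the data only through their TNF counts.

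Promoter windows were at hand for 6 of the 7 decay genes (RefSeq, build GRCm38.p6, from 250 bases before to 50 after a start site, 300 bases in all). Both strands were searched, with overlaps between motifs allowed, for the NF-kB consensus, the STAT site TTCNNNGAA, the interferon response core by name (ISRE), the AP-1 site TGANTCA and the TATA box TATAAA, which 5.37%, 6.88%, 3.21%, 5.59% and 7.68% of windows of tested genes hold. No window of the 6 genes held the NF-kB consensus, a statement about these letters in these windows only. Zfp36l1 held TGATTCA, a match to the searched letters TGANTCA, 129 bases before the start and a TATA box 29 bases before it. Zfp36 held a STAT site 17 bases before the start. Rc3h1, which was not called, held TGACTCA, another match to TGANTCA, 133 bases before its start. The windows of Zc3h12a, Zc3h12c and Rc3h2 held none of the 5 motifs. The windows of both TTP-family genes that rose are shown with these matches in capitals.
Zfp36l1, chr12:80112964-80113263, minus strand: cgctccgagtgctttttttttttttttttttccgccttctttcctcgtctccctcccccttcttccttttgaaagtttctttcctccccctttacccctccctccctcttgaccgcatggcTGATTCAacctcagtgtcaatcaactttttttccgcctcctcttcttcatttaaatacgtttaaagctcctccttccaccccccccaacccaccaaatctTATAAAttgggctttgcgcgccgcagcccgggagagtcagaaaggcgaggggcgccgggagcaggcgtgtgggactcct
Zfp36, chr7:28379179-28379478, minus strand: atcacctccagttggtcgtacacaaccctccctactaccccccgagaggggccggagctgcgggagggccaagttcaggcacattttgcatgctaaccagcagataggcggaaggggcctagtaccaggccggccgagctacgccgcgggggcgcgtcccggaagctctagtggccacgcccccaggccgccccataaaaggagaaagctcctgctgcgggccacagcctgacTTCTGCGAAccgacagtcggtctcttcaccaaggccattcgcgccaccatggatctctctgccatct

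The genes whose log2(TPM + 0.1) followed each decay gene most closely over the 6 libraries were picked by Pearson's r. For Zc3h12a they were Irf7 and Sp100 (r = 0.999 each), which encode an interferon regulatory factor and a nuclear body protein, with log2 fold changes of 3.13 and 1.58. For Zfp36l1 they were Trim56 and Tmem74 (r = 0.999 each), for Zfp36 Nub1 and Mras (r = 0.997 each), and for Zc3h12c Alkbh5 (r = 0.991) and Atp7a (r = 0.990). Zfp36l2 was followed by Ddx42 (r = 0.998) and Pamr1 (r = 0.996), Rc3h1 by Efcab14 (r = 0.976) and BE692007 (r = 0.974), and Rc3h2 by Cert1 (r = 0.992) and Olfr1033 (r = 0.976). With 6 libraries in 2 groups, picked from all tested genes, values this close to 1 describe these libraries only.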

How the data were processed

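RNA-seq of 3 TNF and 3 Control libraries was used. Per the submitters' processing notes the reads went through Trim Galore, STAR, StringTie and Salmon on build GRCm39, with versions, roles and settings not given in the sources used here; the kit was a stranded one per the labels. The authors deposited expected counts per gene as whole numbers and, in other files, TPM with symbols. The count files are titled normalized but their column is named raw; totals differ between libraries and they were used as counts. Because the count files name no gene, each line took the symbol on the same line number of the TPM file. As a check, all 260 zeros coincided, and the log2 ratio of count to TPM had a median SD of 0.0275 across libraries, but 0.413 when lines were shifted by 1.

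The main test used edgeR 4.0.16 (R 4.3.3) with low counts removed (filterByExpr, TMM factors, glmQLFit, glmQLFTest, group as the only term, two-sided, adjusted over 15547 genes). The SE is the absolute log2 fold change divided by the root of F. The procedure was tested on simulated data. Alternatives were RLE factors, library totals, removal of the 18S row, DESeq2 1.42.0, limma-voom (limma 3.58.1), limma on log2 TPM with pseudocounts of 1 or 0.1, other filters, the replicate block and leaving out libraries. The members and lists were chosen with earlier results of these data known. Named genes were the members, up to 3 called genes per list and direction with the smallest adjusted p, and for each member the 2 genes of most similar profile without predicted genes. Elavl1, Cnot1, Zc3h12b, Adgre1, Il1a, Il1b, the uncalled targets and the targets shown by sequence were named after their values were seen. Promoters came from RefSeq and 3' UTRs from GENCODE M21, 1 transcript per gene (principal, then longest 3' UTR).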

Additional observations from a re-analysis of the deposited data

How the results depend on the processing

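Zc3h12a, Zfp36l1 and Zfp36 were called higher and Zfp36l2, Rc3h1 and Rc3h2 were not called under all 17 alternatives, with log2 fold changes of 2.05 to 2.39, 1.13 to 1.39 and 0.42 to 0.56 for the 3 called genes. The call of Zfp36 was near the threshold with limma on log2 TPM (adjusted p = 0.0442 with a pseudocount of 1, 0.0414 with 0.1). With library totals its edgeR adjusted p was 0.0255, against 0.00117 in the main fit. Zc3h12c was not called with limma on log2(TPM + 0.1) (log2 fold change 0.50, adjusted p = 0.0504), and ran from 0.47 to 0.71 when 1 library was left out. Rc3h2 changed sign with library totals (-0.0453), without both libraries numbered 2 (-0.0928), and between -0.11 and 0.16 when 1 library was left out, and Rc3h1 ran from -0.0091 to 0.26. The causes were not tested. With CPM in place of TPM the share of Zfp36 in its family differed by 0.98 and that of Zc3h12a by 26.4 percentage points, since length scaling is then absent, against 0.63 and 29.5 with TPM.

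Over all genes 2489 were higher and 2550 lower. The higher count was 1612 with library totals, and 1477 and 1470 with limma on TPM with pseudocounts of 1 and 0.1. Leaving out 1 library gave 1721 to 2413 higher and 1728 to 2382 lower. Counts of decay genes called higher stayed at 3 or 4. Deadenylation genes called higher were 0 with library totals, both TPM fits, the 5 CPM filter and the replicate block, and 0 to 2 without 1 library. Those called lower were 2 with both TPM fits, and 0 to 1 without 1 library. Decapping genes called higher were 0 with library totals and both TPM fits, 5 with DESeq2 and without both libraries numbered 2, and 1 to 3 without 1 library. The lower ones were 1 with RLE factors, voom and the block, and 0 to 1 without 1 library. Regulators called higher were 5 with both TPM fits. Map2k6, the lower one, was lost (0) with library totals, both TPM fits, the 5 CPM filter, the block and without both libraries numbered 2, and the lower count was 0 to 1 without 1 library. Other RNA-binding proteins called higher were 2 with the block and without both libraries numbered 2. Macrophage markers called higher were 1 with library totals, both TPM fits and the block, 4 without both libraries numbered 2, and 1 to 4 without 1 library.

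Deviations from group means correlated by -0.01, -0.30 and -0.22 between samples of the same replicate number (1, 2 and 3). With 3 libraries per group these values cannot tell whether the samples were paired, and the labels do not say. With the replicate block 1987 genes were higher and 1993 lower, and the decay genes kept the same 4 calls, Zc3h12c with a log2 fold change of 0.59. All counts here rest on 3 libraries per group, and leaving out 1 leaves 2 in that group.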
